A study of Arabidopsis thaliana with 6 samples.

Results

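Pol IV-independent windows are stretches of 300 bp of the Arabidopsis thaliana genome whose cytosine methylation in the CHH context (H is A, C or T) was as high without the RNA polymerase Pol IV as with it. They were taken from non-overlapping windows counted from base 1 of each nuclear chromosome. A window had to hold at least 10 CHH cytosines in each of the 6 libraries, where a cytosine was listed with 5 reads or more. The pooled level in nrpd1-3 had to be 10% or more, and the level in full-length NRPD1 had to lie within 3 percentage points of it. Of 278507 covered windows, 29065 (10.4%) met this rule, which together span 8719 kb. The level of a window is the share of its CHH reads that were methylated, in percent. Reads are summed over cytosines throughout, so that a sequenced read counts once for each CHH cytosine it spans.

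All 6 libraries came from Col-0 plants in the nrpd1-3 background, a null mutant whose gene for the Pol IV largest subunit is disrupted by a T-DNA. Above-ground tissues were taken at 2.5 weeks from plants kept in soil on a day of 16 h light and 8 h dark. The groups, of 2 libraries each, were nrpd1-3 with a FLAG-tagged NRPD1 transgene lacking the DeCL domain of the carboxy terminus (labelled nrpd1dDeCL, called NRPD1ΔCTD here), nrpd1-3 with no transgene, and nrpd1-3 with FLAG-tagged full-length NRPD1 (NRPD1FL). The truncated transgene was derived from a genomic clone with the promoter of NRPD1 itself, and transgenic plants were selected with Basta. NRPE1FL stands in the titles of the full-length samples, but the transgene listed for them is NRPD1FL, which is the name used here. The labels name no insertion lines and do not say how many plants were pooled, and no wild type was analysed here. The methods call the replicates independent and biological.

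In plants, CHH methylation is not copied with the DNA strand and must be placed anew. One pathway, RNA-directed DNA methylation, uses small RNAs that begin with transcripts of Pol IV and end with the methyltransferase DRM2. Another uses the chromomethylase CMT2, which binds histone H3 methylated at lysine 9 and acts on long transposons in heterochromatin, where the remodeller DDM1 gives it access. CMT2 is known to favour CAA and CTA among the CHH trinucleotides, whereas DRM2 is less selective. The windows were chosen by the measured levels of nrpd1-3 and NRPD1FL, whose likeness in them is therefore a description and not a finding. The NRPD1ΔCTD libraries did not enter the choice, and neither did sequence, position or strand.

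Sequences of 5 windows show what this methylation looks like at the level of bases. For each chromosome the window shown had the nrpd1-3 level nearest to the median over Pol IV-independent windows, with at least 30 cytosines in every library and no extreme coverage. The top strand of TAIR10.1 (RefSeq) is given 5′ to 3′. Capitals mark CAA and CTA of the top strand, and TTG and TAG, which are CAA and CTA of the bottom strand. A single capital C at the end belongs to a site that runs on into the next window.
chr1:15701701-15702000: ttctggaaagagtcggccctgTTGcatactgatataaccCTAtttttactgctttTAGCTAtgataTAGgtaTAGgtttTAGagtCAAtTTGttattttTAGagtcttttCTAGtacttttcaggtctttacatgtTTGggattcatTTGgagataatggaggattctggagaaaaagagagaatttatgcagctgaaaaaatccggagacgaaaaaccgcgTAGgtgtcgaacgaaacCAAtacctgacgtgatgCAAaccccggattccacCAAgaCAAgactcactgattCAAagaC
chr2:4682401-4682700: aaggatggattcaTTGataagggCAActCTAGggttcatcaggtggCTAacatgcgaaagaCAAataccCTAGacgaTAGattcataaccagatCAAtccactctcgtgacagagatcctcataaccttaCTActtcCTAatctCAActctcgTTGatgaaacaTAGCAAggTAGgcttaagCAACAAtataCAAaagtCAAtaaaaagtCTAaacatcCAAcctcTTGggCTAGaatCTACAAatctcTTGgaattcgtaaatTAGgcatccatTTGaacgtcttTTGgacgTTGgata
chr3:13469401-13469700: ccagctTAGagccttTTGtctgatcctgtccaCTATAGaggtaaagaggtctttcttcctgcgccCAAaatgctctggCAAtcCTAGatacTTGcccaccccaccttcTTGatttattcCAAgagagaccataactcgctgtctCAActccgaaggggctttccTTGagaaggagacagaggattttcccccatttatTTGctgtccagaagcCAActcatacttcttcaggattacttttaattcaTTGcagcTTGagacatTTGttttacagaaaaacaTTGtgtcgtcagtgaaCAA
chr4:3180901-3181200: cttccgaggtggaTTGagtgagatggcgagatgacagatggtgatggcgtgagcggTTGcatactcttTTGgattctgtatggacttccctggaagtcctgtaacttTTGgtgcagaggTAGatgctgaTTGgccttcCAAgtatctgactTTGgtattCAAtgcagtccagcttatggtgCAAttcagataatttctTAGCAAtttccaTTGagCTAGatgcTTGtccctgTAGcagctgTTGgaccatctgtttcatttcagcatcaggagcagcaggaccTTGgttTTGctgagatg
chr5:12294301-12294600: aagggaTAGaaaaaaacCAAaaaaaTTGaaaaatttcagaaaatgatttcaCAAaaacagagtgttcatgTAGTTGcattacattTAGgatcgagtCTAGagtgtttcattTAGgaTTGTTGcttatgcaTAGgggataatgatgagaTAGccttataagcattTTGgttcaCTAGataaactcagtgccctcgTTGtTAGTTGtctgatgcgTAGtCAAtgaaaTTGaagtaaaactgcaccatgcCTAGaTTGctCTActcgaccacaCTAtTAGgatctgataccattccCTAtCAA

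In the chromosome 1 window, which lies 1232 bp from AT1G42003, the levels were 16.0 and 15.5% in NRPD1ΔCTD, 14.9 and 13.9% in nrpd1-3, and 16.0 and 15.1% in NRPD1FL. Its capitals held most of this methylation. CAA and CTA cytosines stood at 40.9% in NRPD1ΔCTD, 32.2% in nrpd1-3 and 34.7% in NRPD1FL, and all other CHH cytosines at 6.64% in NRPD1ΔCTD, 7.96% in nrpd1-3 and 8.36% in NRPD1FL. The most methylated cytosine of this window in NRPD1ΔCTD was a CTA of the top strand at base 40, with 72.7% in NRPD1ΔCTD, 54.1% in nrpd1-3 and 61.8% in NRPD1FL.

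The chromosome 4 window lies in the pseudogene AT4G06506 and had 12.7 and 13.0% in NRPD1ΔCTD, 15.2 and 13.5% in nrpd1-3, and 12.9 and 10.98% in NRPD1FL. Here 20 of the 91 cytosines that every library covered with 10 reads or more were at CAA or CTA, and so were all 10 of the most methylated in NRPD1ΔCTD. The leading cytosine was a CAA of the bottom strand at base 16, at 62.8% in NRPD1ΔCTD, 59.6% in nrpd1-3 and 59.1% in NRPD1FL. Of these 10 cytosines, 9 were also among the 10 highest in nrpd1-3 and 7 among the 10 highest in NRPD1FL. The most methylated cytosines were thus largely shared between the groups.

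On chromosome 5, 252 bp from AT5G32624, the levels were 14.6 and 16.3% in NRPD1ΔCTD, 14.0 and 14.8% in nrpd1-3, and 15.3 and 16.1% in NRPD1FL. A bottom-strand CAA at base 76 stood at 76.2% in NRPD1ΔCTD, 79.1% in nrpd1-3 and 76.8% in NRPD1FL, on 42, 43 and 56 reads. In the chromosome 2 and 3 windows, 7 and 9 of the 10 most methylated cytosines in NRPD1ΔCTD were at CAA or CTA. All 5 windows lie in the pericentromere. In the chromosome 4 window both NRPD1ΔCTD libraries lay below both nrpd1-3 libraries, and in the chromosome 1 and 3 windows above both, while the groups overlapped in the chromosome 2 and 5 windows.

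Set against them are windows that depend on Pol IV. These had under 10% in nrpd1-3, at least 10 points less than in NRPD1FL, and an adjusted p of 0.01 or less by logistic regression with Benjamini-Hochberg adjustment, and there were 6037 of them. The pair with the largest loss, under the same limits on cytosines and coverage, is printed in the same manner. They hold 26 and 21 CAA and CTA sites, and the windows above hold 20 to 33.
chr5:20208901-20209200: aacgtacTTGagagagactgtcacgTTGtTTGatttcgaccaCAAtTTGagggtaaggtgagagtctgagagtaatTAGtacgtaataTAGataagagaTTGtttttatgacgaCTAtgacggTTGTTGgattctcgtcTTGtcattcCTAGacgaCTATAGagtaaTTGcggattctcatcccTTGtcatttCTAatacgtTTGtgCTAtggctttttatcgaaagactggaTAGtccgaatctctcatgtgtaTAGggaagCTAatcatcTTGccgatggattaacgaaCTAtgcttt
chr3:10514101-10514400: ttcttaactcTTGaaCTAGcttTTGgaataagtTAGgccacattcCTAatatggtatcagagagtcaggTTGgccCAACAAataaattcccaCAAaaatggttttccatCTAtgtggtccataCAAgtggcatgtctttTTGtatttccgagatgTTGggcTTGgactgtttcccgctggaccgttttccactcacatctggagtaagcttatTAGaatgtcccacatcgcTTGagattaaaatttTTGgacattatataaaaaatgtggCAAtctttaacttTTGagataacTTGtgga

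The chromosome 5 window, in the arm at the edge of the pseudogene AT5G49743, had 39.1 and 40.2% in NRPD1ΔCTD, 0.863 and 0.388% in nrpd1-3, and 58.7 and 60.7% in NRPD1FL. The capitals above mark 26 CAA and CTA sites of the reference, while levels cover only the 34 to 50 CHH cytosines listed per library. Covered CAA and CTA cytosines stood at 43.2% in NRPD1ΔCTD, 1.201% in nrpd1-3 and 59.9% in NRPD1FL. The other covered CHH cytosines stood at 38.3% in NRPD1ΔCTD, 0.456% in nrpd1-3 and 59.7% in NRPD1FL. The chromosome 3 window, 234 bp from AT3G28193, had 46.3 and 52.2% in NRPD1ΔCTD, 2.28 and 3.13% in nrpd1-3, and 58.95 and 63.7% in NRPD1FL. Its CAA and CTA cytosines stood at 58.3% in NRPD1ΔCTD, 3.59% in nrpd1-3 and 71.2% in NRPD1FL. Its other CHH cytosines stood at 46.4% in NRPD1ΔCTD, 2.45% in nrpd1-3 and 58.0% in NRPD1FL. CAA and CTA thus exceeded the other cytosines in every group in both of these windows, but only by 59.9 against 59.7% in NRPD1FL on chromosome 5. The gap was wider in the 5 windows above, with 30.6 to 36.9% at CAA and CTA in NRPD1FL against 5.27 to 8.36% at the others.

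Over all Pol IV-independent windows, the NRPD1ΔCTD libraries had levels of 15.3 and 15.1%, the nrpd1-3 libraries 15.7 and 15.1%, and the NRPD1FL libraries 15.03 and 14.9%. NRPD1ΔCTD overlapped with nrpd1-3, and both NRPD1ΔCTD libraries lay just above both NRPD1FL libraries. Group means were 15.2% ± 0.163 in NRPD1ΔCTD, 15.4% ± 0.431 in nrpd1-3 and 14.9% ± 0.128 in NRPD1FL (SD, n = 2 each). NRPD1ΔCTD minus nrpd1-3 was -0.200 points, and a two-sided exact permutation test over libraries gave p = 0.667. NRPD1ΔCTD minus NRPD1FL was 0.230 points, with exact p = 0.333, which is the smallest p that 2 libraries against 2 can give. One side of each test is a group whose values the rule used, with a floor under nrpd1-3 alone. These p values therefore do not stand apart from the choice, whose part in the differences was not tested. Replicates lay 0.230 points apart in NRPD1ΔCTD, 0.610 in nrpd1-3 and 0.181 in NRPD1FL. The difference from nrpd1-3 is thus within the spread between replicates, and that from NRPD1FL is no larger than the gap between the NRPD1ΔCTD libraries. Without nrpd1-3 replicate 1 the difference from nrpd1-3 was 0.0226 points, so that its sign rests on that library. These levels rest on 58060731 to 65536857 reads per library, summed over cytosines. Counting error was not estimated, and the SD between libraries is given instead.

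**Figure D1:**
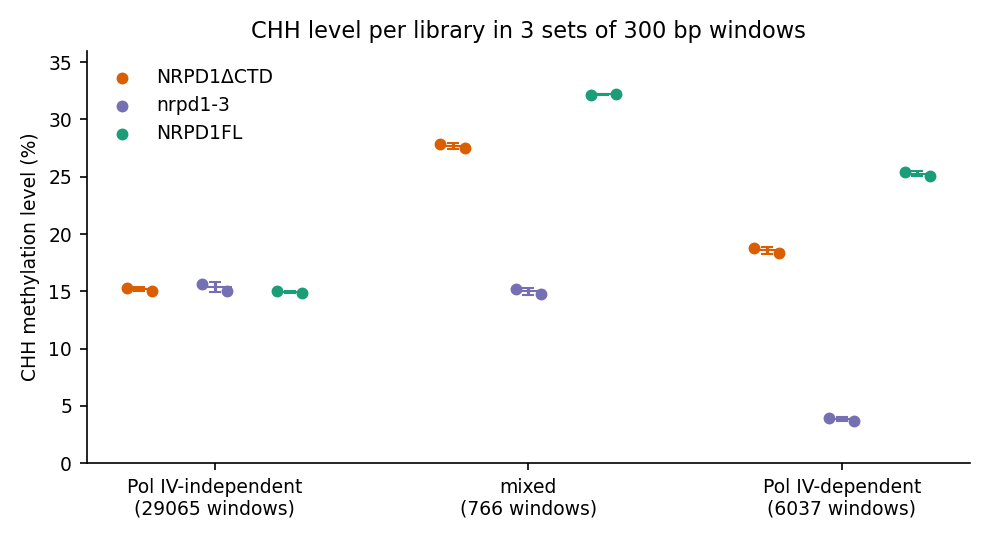
CHH methylation level in percent (y axis) of each library (points) in Pol IV-independent, mixed and Pol IV-dependent windows, with the group mean (dash) and SD (bars, n = 2). The 6 libraries lie between 14.9 and 15.7% in Pol IV-independent windows, while nrpd1-3 lies at 3.69 and 3.95% in Pol IV-dependent windows.

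Elsewhere the groups stood apart. In Pol IV-dependent windows the level was 18.6% ± 0.321 in NRPD1ΔCTD, 3.82% ± 0.184 in nrpd1-3 and 25.3% ± 0.222 in NRPD1FL (SD, n = 2 each). The loss in nrpd1-3 against NRPD1FL was part of their definition, which favours low nrpd1-3 and high NRPD1FL values. The part of this choice in the place of NRPD1ΔCTD between them was not tested. A further 766 windows, called mixed here, had 10% or more in nrpd1-3 and yet the same loss against NRPD1FL. They had 27.7% ± 0.257 in NRPD1ΔCTD, 14.998% ± 0.321 in nrpd1-3 and 32.2% ± 0.0284 in NRPD1FL (SD, n = 2 each).

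Pol IV-independent windows made up 81.4% of the 35710 covered windows with 10% or more in nrpd1-3. They held 64.9 and 65.02% of all methylated CHH reads in NRPD1ΔCTD, 69.5 and 72.2% in nrpd1-3, and 60.7 and 60.7% in NRPD1FL, on 28.4 to 30.3% of all CHH reads. Their share of reads averaged 29.7% ± 0.921 in nrpd1-3 and 28.9% ± 0.683 in NRPD1FL (SD, n = 2 each), a ratio of 1.03 with exact p = 0.667 in a two-sided permutation test. Median depth per cytosine was 23.7 to 26.2 reads in these windows and 11.4 to 12.5 reads in all covered windows. Without windows above the 99th percentile of coverage in any library, 26210 windows met the rule and NRPD1ΔCTD minus nrpd1-3 was -0.182 points.

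Because nrpd1-3 and NRPD1FL chose the windows, the rule was also applied to the replicate 1 libraries and the level measured in replicate 2. The 27106 windows chosen in this way had 14.99% in NRPD1ΔCTD, 14.9% in nrpd1-3 and 14.8% in NRPD1FL, all in replicate 2. The reverse choice took 26495 windows, with replicate 1 levels of 15.3% in NRPD1ΔCTD, 15.7% in nrpd1-3 and 15.1% in NRPD1FL. Held-out differences of nrpd1-3 minus NRPD1FL were thus 0.117 and 0.631 points, with no test as each side is 1 library. Replicate 1 exceeded replicate 2 by 0.230 points in NRPD1ΔCTD, 0.610 points in nrpd1-3 and 0.181 points in NRPD1FL. In nrpd1-3, 63.8% of the Pol IV-independent windows were higher in replicate 1, and the same library was higher by 0.786 points over all covered windows.

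At the threshold the windows pass into others without a gap. The 1566 windows just inside the 10% limit had medians of 10.096% in NRPD1ΔCTD, 10.3% in nrpd1-3 and 10.02% in NRPD1FL, and the 1438 just outside it had 9.62% in NRPD1ΔCTD, 9.76% in nrpd1-3 and 9.64% in NRPD1FL. Windows just inside the limit of 3 points on the side of loss had medians of 16.1% in NRPD1ΔCTD, 14.0% in nrpd1-3 and 16.9% in NRPD1FL, and those just outside it 16.4% in NRPD1ΔCTD, 14.0% in nrpd1-3 and 17.2% in NRPD1FL. On the side of gain, medians inside the limit were 13.6% in NRPD1ΔCTD, 15.3% in nrpd1-3 and 12.6% in NRPD1FL, and outside it 14.0% in NRPD1ΔCTD, 16.1% in nrpd1-3 and 12.8% in NRPD1FL.

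Each window was next tested between NRPD1ΔCTD and each other group by logistic regression on the reads, with Benjamini-Hochberg adjustment over all covered windows. This regression pools the libraries of a group and treats reads at each cytosine as independent. Its p values therefore do not measure the spread between libraries, also where they define Pol IV-dependent and mixed windows. A call needed an adjusted p of 0.01 or less and 10 points. Higher in NRPD1ΔCTD than in nrpd1-3 were 4 Pol IV-independent windows, against a background of 1.5% of covered windows, and lower was 1, against 0.00826%. Compared with NRPD1FL, 3 were higher, against 0.014%, and 1 was lower, against 0.541%. NRPD1ΔCTD lay within 3 points of nrpd1-3 in 94.2% of the Pol IV-independent windows and within 3 points of NRPD1FL in 96.0% of them. For all covered windows, most of which are hardly methylated, these shares were 93.3 and 95.7%, and for Pol IV-dependent windows 4.54 and 18.4%.

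Median differences over Pol IV-independent windows were -0.275 points from nrpd1-3 and 0.182 points from NRPD1FL, with 5th and 95th percentiles of -2.53 and 2.54 points, and -2.08 and 2.34 points. The rule puts a floor under nrpd1-3 alone, and the part of this in the differences was not tested. At unadjusted p under 0.05, 10.7% of the windows were higher and 17.8% lower in NRPD1ΔCTD than in nrpd1-3, beside 10.7 and 15.1% of all covered windows. Both NRPD1ΔCTD libraries lay above both nrpd1-3 libraries in 15.8% of the windows and below both in 24.6%, beside 18% and 17.5% of all covered windows. Against NRPD1FL the shares leaned the other way. At unadjusted p under 0.05, 12.1% of the windows were higher and 7.17% lower in NRPD1ΔCTD than in NRPD1FL, beside 5.62 and 8.37% of all covered windows. Both NRPD1ΔCTD libraries lay above both NRPD1FL libraries in 20.3% of the windows and below both in 13.5%, beside 14.9% and 17.7% of all covered windows. The calls varied with the libraries used. Without NRPD1ΔCTD replicate 1 or replicate 2, 12 and 18 windows were called higher than nrpd1-3, beside 4155 and 4385 of all covered windows. Higher than NRPD1FL were 9 and 12, beside 66 and 68 of all covered windows. Without NRPD1FL replicate 2, 7 were higher than nrpd1-3 and 11 higher than NRPD1FL, beside 4171 and 64 of all covered windows. Without nrpd1-3 replicate 1 only 1 window was called higher than NRPD1FL, beside 39 of all covered windows. Limma and an F test with overdispersion estimated per window, both with Benjamini-Hochberg adjustment, called 0 of them in either direction against either group. At an unadjusted p under 0.05 and 10 points, limma had 2 windows higher than nrpd1-3 and 1 lower than NRPD1FL, with 0 in the other directions. The F test had 1 higher than nrpd1-3, 0 lower, 1 higher than NRPD1FL and 1 lower. Of all covered windows, limma called 0 in either direction against either group, and the F test called 1, higher than nrpd1-3. Counts of 0 are thus not particular to Pol IV-independent windows. At an unadjusted p under 0.05 and 10 points, limma had 4079 covered windows higher and 6 lower than nrpd1-3, and 16 higher and 799 lower than NRPD1FL. The F test had 3312 higher and 8 lower than nrpd1-3, and 12 higher and 766 lower than NRPD1FL.

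**Figure D2:**
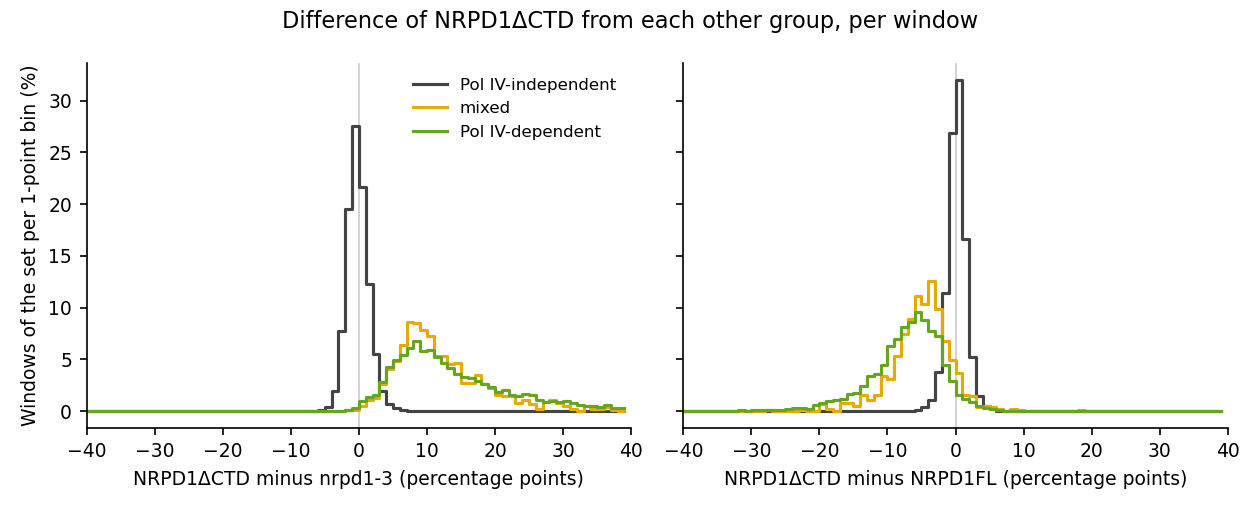
Share of windows (y axis, percent of the set per bin of 1 point) by the pooled CHH level of NRPD1ΔCTD minus that of nrpd1-3 (left) or NRPD1FL (right), in percentage points (x axis). Pol IV-independent windows are most frequent between -1 and 0 points on the left (27.5%) and between 0 and 1 on the right (32.0%), with 94.2 and 96.0% of them within 3 points. Most Pol IV-dependent and mixed windows, which were chosen for nrpd1-3 below NRPD1FL, lie above nrpd1-3 and below NRPD1FL.

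The largest excess of NRPD1ΔCTD over the other 4 libraries, among windows with 20 cytosines or more, was in the pseudogene AT3G30695 (chr3:12249601-12249900). Its levels were 41.2 and 37.3% in NRPD1ΔCTD, 24.5 and 28.0% in nrpd1-3, and 23.6 and 33.9% in NRPD1FL. Next came chr2:1758601-1758900, 36 bp from AT2G04990, with 24.9 and 27.9% in NRPD1ΔCTD, 11.01 and 21.4% in nrpd1-3, and 16.0 and 16.6% in NRPD1FL. Both were among the 4 windows called higher than nrpd1-3. The other 2, named after their values were seen, were chr1:15131101-15131400, with 24.3 and 17.9% in NRPD1ΔCTD, 11.7 and 9.85% in nrpd1-3, and 11.2 and 15.4% in NRPD1FL, and a window of the pseudogene AT1G57640 (chr1:21350401-21350700). The pseudogene window had 49.2 and 40.6% in NRPD1ΔCTD, 29.7 and 20.3% in nrpd1-3, and 22.3 and 32.7% in NRPD1FL. These levels rest on 65 to 247 reads per library summed over cytosines, at only 5.91 to 8 reads per cytosine. All but the chr1:15131101 window were also the 3 called higher than NRPD1FL. The largest deficit lay in a coding exon of AT1G52905 (chr1:19706101-19706400), at 8.75 and 9.63% in NRPD1ΔCTD, 17.0 and 13.7% in nrpd1-3, and 15.2 and 17.5% in NRPD1FL. Windows in which both NRPD1ΔCTD libraries lay above the other 4 made up 6.48% of the Pol IV-independent windows with 20 cytosines or more and 5.45% of all covered windows of that kind. Those in which both lay below made up 6.75% of the Pol IV-independent and 6.21% of the covered windows.

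A call can also rest on a single library. The window called lower than both groups, chr3:873001-873300 in the non-coding RNA genes AT3G00170 and AT3G01295, was chosen for description after its values were seen. It had 0 and 0.362% in NRPD1ΔCTD, 0 and 52.0% in nrpd1-3, and 44.1 and 35.3% in NRPD1FL, so that its pooled nrpd1-3 level came from replicate 2 alone. With a minimum of 10 reads per cytosine, 0 windows were called lower than either group, beside 7 covered windows lower than nrpd1-3 and 667 lower than NRPD1FL.

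Trinucleotides were examined next because the rule did not use them. In Pol IV-independent windows, CAA and CTA cytosines together stood at 37.9% ± 0.295 in NRPD1ΔCTD, 38.6% ± 0.687 in nrpd1-3 and 37.3% ± 0.310 in NRPD1FL (SD, n = 2 each). The other 7 trinucleotides together stood at 7.32% ± 0.0909 in NRPD1ΔCTD, 7.37% ± 0.291 in nrpd1-3 and 7.25% ± 0.0524 in NRPD1FL. The ratio of the pair to the rest was 5.18 in NRPD1ΔCTD, 5.24 in nrpd1-3 and 5.15 in NRPD1FL. CAA and CTA supplied 64.2% of the methylated CHH reads of these windows in NRPD1ΔCTD, 64.4% in nrpd1-3 and 63.9% in NRPD1FL.

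Single trinucleotides kept the same order in each group. In NRPD1ΔCTD, CAA was at 38.2% ± 0.283 and CTA at 37.5% ± 0.313 (SD, n = 2 each). CTC followed at 12.1%, CTT at 10.2%, CAC at 7.61%, CAT at 6.97% and CCA at 6.02%. CCT and CCC were lowest, at 1.77 and 1.43% in NRPD1ΔCTD, 1.63 and 1.31% in nrpd1-3, and 1.84 and 1.51% in NRPD1FL.

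In Pol IV-dependent windows the ratio was 1.76 in NRPD1ΔCTD, 3.72 in nrpd1-3 and 1.60 in NRPD1FL. The log2 ratio was higher in Pol IV-independent windows by 1.56 and 1.56 in the NRPD1ΔCTD libraries, 0.51 and 0.48 in the nrpd1-3 libraries, and 1.69 and 1.69 in the NRPD1FL libraries. Against mixed windows it was higher by 1.11 and 1.13 in the NRPD1ΔCTD libraries, 0.44 and 0.46 in the nrpd1-3 libraries, and 1.25 and 1.25 in the NRPD1FL libraries. The values fall by group, and the nrpd1-3 and NRPD1FL libraries also chose the windows compared, so the differences are given as a description with no test. Averaged over the 6 libraries, the difference from Pol IV-dependent windows was 1.25 in all windows, 1.19 within the pericentromere and 1.18 within the arms. The last 2 settings were chosen after the data were seen.

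Residual methylation of nrpd1-3 in the other sets was also concentrated at CAA and CTA. Mixed windows had ratios of 2.39 in NRPD1ΔCTD, 3.83 in nrpd1-3 and 2.17 in NRPD1FL. In nrpd1-3 they had 30.8% ± 0.506 at CAA and CTA and 8.05% ± 0.212 at the other 7 (SD, n = 2 each). Pol IV-dependent windows in nrpd1-3 had 7.67% ± 0.243 and 2.07% ± 0.147 (SD, n = 2 each). The loss in nrpd1-3 against NRPD1FL reached every trinucleotide of these sets, from -12.7 points at CCT to -21.3 points at CTA in mixed windows, and from -16.6 points at CCC to -28.1 points at CTA in Pol IV-dependent windows.

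**Figure D3:**
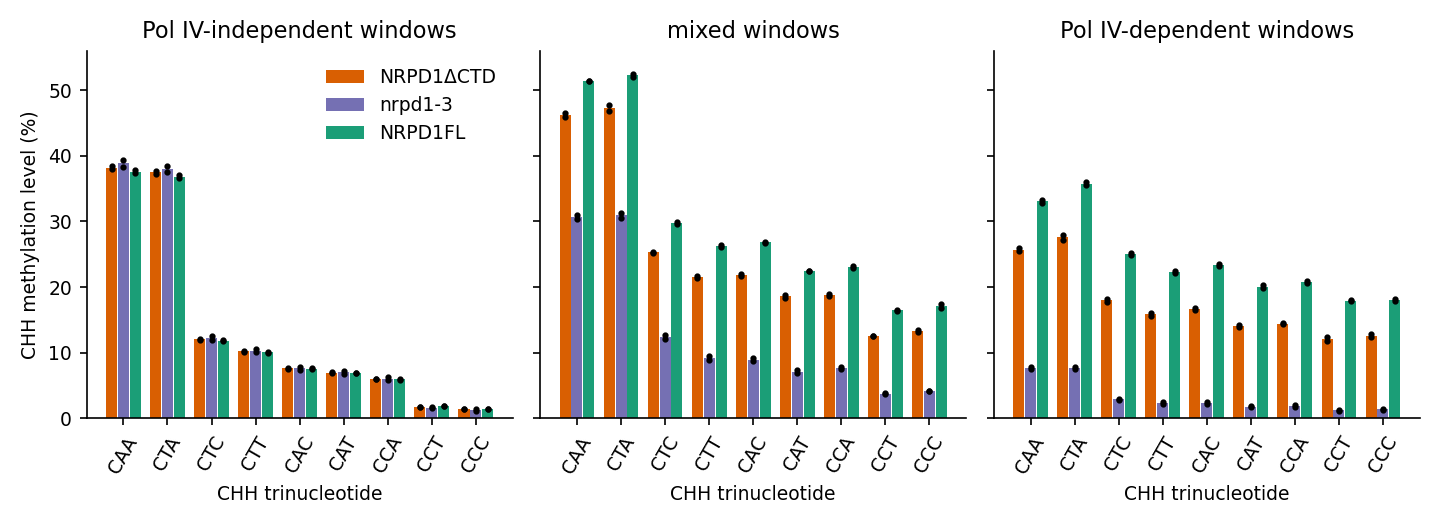
CHH methylation level in percent (y axis) at each of the 9 CHH trinucleotides (x axis) in Pol IV-independent, mixed and Pol IV-dependent windows. Bars are means of 2 libraries, shown as points, for NRPD1ΔCTD, nrpd1-3 and NRPD1FL; in Pol IV-independent windows CAA and CTA stand between 36.8 and 38.8% as group means, against 1.31 to 1.51% at CCC.

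Counts of sites and base composition were compared as well. A Pol IV-independent window held a median of 23 CAA and CTA sites on both strands of the reference, against 22 in Pol IV-dependent windows and 22 in all covered windows. Median GC content was 41.5% in Pol IV-independent windows, 31.3% in Pol IV-dependent windows and 38.7% in all covered windows. From the fifth of windows with the smallest share of CAA and CTA among their CHH cytosines to the fifth with the largest, the median NRPD1ΔCTD level went 13.6, 14.0, 14.2, 14.3 and 15.1%. Across the 29065 windows, which share libraries and are not independent, Pearson's r of that share with the level was 0.104 and Spearman's rho 0.118.

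Levels also varied with the base beside the trinucleotide. At CTA cytosines that each library covered with 10 reads or more, the level in NRPD1ΔCTD was 43.2% ± 0.244 after T, 40.5% ± 0.336 after C, 34.2% ± 0.213 after A and 30.2% ± 0.320 after G (SD, n = 2 each). After T, C, A and G, nrpd1-3 had 43.9, 41.1, 34.8 and 30.7%, and NRPD1FL had 42.5, 39.8, 33.6 and 29.6%. At CTT, NRPD1ΔCTD had 14.4% ± 0.204 after T and 6.09% ± 0.0900 after A (SD, n = 2 each). CAA varied less, with 40.05% ± 0.237 after T and 36.2% ± 0.264 after G. These ranges exceed the spread between replicates, and the order of bases at CTA was the same in the 3 groups.

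Single cytosines were rarely methylated in every read. Among 405733 CAA and CTA cytosines of Pol IV-independent windows with at least 10 reads per library, the median pooled level was 36.6% in NRPD1ΔCTD, 37.5% in nrpd1-3 and 35.9% in NRPD1FL. A level of 80% or more was reached by 1.06% of them in NRPD1ΔCTD, 0.999% in nrpd1-3 and 0.939% in NRPD1FL, while 0.262% in NRPD1ΔCTD, 0.212% in nrpd1-3 and 0.233% in NRPD1FL had no methylated read. At the 1173888 other CHH cytosines the medians were 3.70% in NRPD1ΔCTD, 3.66% in nrpd1-3 and 3.77% in NRPD1FL, and no methylated read was seen at 21.7% of them in NRPD1ΔCTD, 21.6% in nrpd1-3 and 20.4% in NRPD1FL. Levels of single cytosines correlated between NRPD1ΔCTD and nrpd1-3 with Pearson's r of 0.946 over 1579621 cytosines, which share windows and libraries. The 2 libraries of nrpd1-3, each with fewer reads than a pooled group, gave 0.904. In Pol IV-dependent windows the correlation of NRPD1ΔCTD with nrpd1-3 was 0.585 over 69486 cytosines.

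The levels of both strands were compared within each window. In the 26657 windows with 5 or more cytosines on each strand in every library, the median absolute difference between strands was 3.77 and 3.80 points in NRPD1ΔCTD, 3.87 and 3.80 points in nrpd1-3, and 3.72 and 3.77 points in NRPD1FL. Pol IV-dependent windows had 5.99 and 5.62 points in NRPD1ΔCTD, 1.94 and 1.71 points in nrpd1-3, where little methylation was left, and 7.27 and 7.10 points in NRPD1FL. Over all windows of each set, median reads per window were 293 to 581 in Pol IV-dependent and 1825 to 2054 in Pol IV-independent windows. Fewer reads widen such differences, and their part in this contrast was not tested.

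Position followed the same division. Of the Pol IV-independent windows, 25874 (89.0%) lay in pericentromeric heterochromatin, the knob of chromosome 4 included, where 45.4% of Pol IV-dependent, 44.1% of mixed and 25.3% of all covered windows lay. They made up 36.8% of the covered windows of the pericentromere and 1.53% of those of the arms. By chromosome, the share of pericentromeric windows ranged from 32.2% on chromosome 2 to 39.7% on chromosome 3. In the knob of chromosome 4, 898 of 2916 covered windows (30.8%) were Pol IV-independent and 113 (3.88%) were Pol IV-dependent.

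Along the chromosome the share rose inward. In bins of the distance from the border of the pericentromere it was 1.83% around 2.75 Mb outside, 5.68% around 0.25 Mb outside, 12.5% around 0.25 Mb inside and 50.1% around 2.75 Mb inside. Pol IV-dependent windows followed another course, with 1.87% around 2.75 Mb outside, 5.98% around 0.25 Mb inside and 1.80% around 2.75 Mb inside. Chromosomes spread widely around these values, with 44.1 to 63.2% Pol IV-independent windows in the innermost bin, which holds 4 chromosomes.

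**Figure D4:**
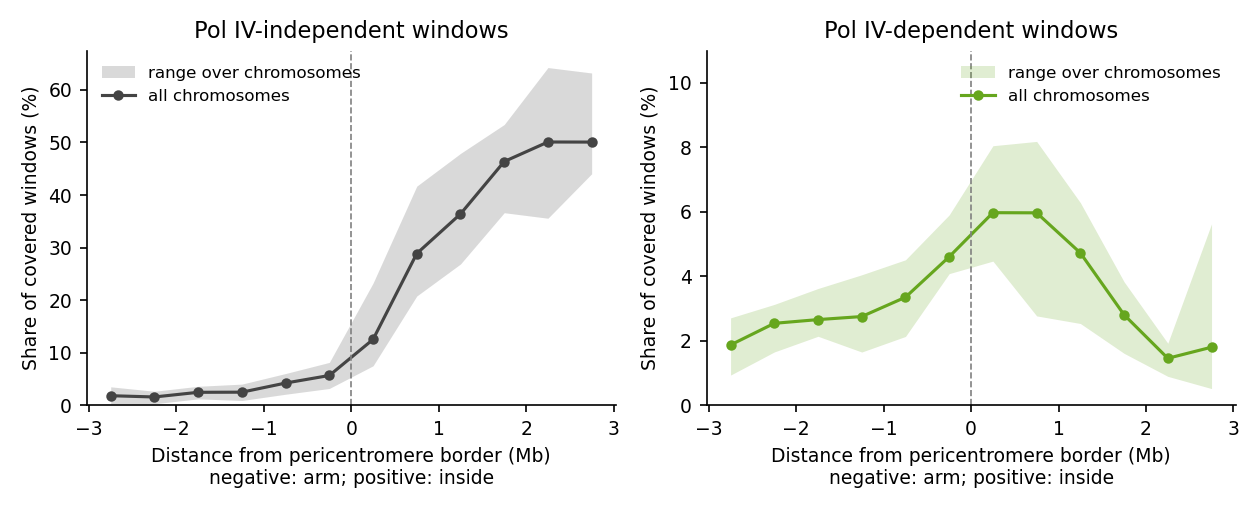
Share of covered windows that were Pol IV-independent (left) or Pol IV-dependent (right), in percent (y axes, on different scales), by distance from the pericentromere border in Mb (x axis, in bins, negative in the arm). Lines give all chromosomes and bands the lowest and highest chromosome; the left curve reaches 50.1% inside while the right curve peaks at 5.98% beside the border.

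The 3191 windows in the arms differed from the others in level. Median NRPD1ΔCTD levels were 13.9% in the pericentromere and 18.6% in the arms, and the pericentromeric median was the lower on each of the 5 chromosomes, at 13.2 to 15.3% against 17.1 to 19.3% in the arms. The CAA and CTA level was 36.7% in the pericentromere and 47.1% in the arms, with ratios to the other trinucleotides of 5.30 and 4.65. Medians of nrpd1-3 were likewise 14.1 and 18.5%, and of NRPD1FL 13.8 and 18.4%. Depth was lower in the pericentromere, with medians of 23.4 to 25.9 reads per cytosine there and 27.1 to 28.98 in the arms, and its part in this difference was not tested.

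By their midpoints, 19116 Pol IV-independent windows (65.8%) lay in annotated pseudogenes and 8531 (29.4%) between genes. The TAIR10.1 annotation places many decayed transposons under pseudogenes and has no transposon features of its own. Of the covered windows in pseudogenes, 59.4% were Pol IV-independent, against 13.3% between genes, 2.81% in non-coding RNA genes, 0.949% in introns, 0.752% in coding exons and 0.297% in untranslated exons. Pol IV-dependent windows lay mostly between genes (82.8%) and in pseudogenes in 5.05%. In the arms the preference was stronger in proportion, as 70.6% of the Pol IV-independent windows but 2.79% of the covered windows there were in pseudogenes.

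The NRPD1ΔCTD median was 14.3% in pseudogenes, 14.1% between genes, 14.0% in introns and 13.7% in coding exons. In all, 2881 of 4843 pseudogenes and 414 of 27444 protein-coding genes held at least 1 Pol IV-independent window. Among pseudogenes with 3 or more covered windows, 57.8% had 50% or more of them in the set.

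The pseudogene with most such windows was AT5G32690 (chr5:12332283-12390801, plus strand), in which 140 of 193 covered windows were Pol IV-independent and 0 were Pol IV-dependent. Over all its covered windows the level was 13.4 and 13.2% in NRPD1ΔCTD, 14.4 and 13.6% in nrpd1-3, and 13.1 and 12.7% in NRPD1FL. AT1G40101 had 39 of 43 covered windows in the set and AT5G30269 had 37 of 48. Of protein-coding genes, AT5G39770 (chr5:15919241-15927549, minus strand) led with 23 of 28. Its level was 21.7 and 21.4% in NRPD1ΔCTD, 22.4 and 21.4% in nrpd1-3, and 21.3 and 21.0% in NRPD1FL. AT1G27570 followed with 22 of 23 windows, at 18.7 and 18.2% in NRPD1ΔCTD, 19.9 and 18.6% in nrpd1-3, and 18.6 and 18.5% in NRPD1FL. AT1G58602 had 20 of 50, and the NRPD1ΔCTD libraries overlapped with the others in these 3 genes or differed from them by under 2 points.

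Of all protein-coding genes, 1.51% held a Pol IV-independent window, so that little can be read from a list of 13. None of 13 genes for enzymes and proteins of this methylation held such a window. These were the methyltransferases CMT2, CMT3, DRM1, DRM2 and MET1, the remodeller DDM1, the histone methyltransferases SUVH4, SUVH5 and SUVH6, the linker histones H1.1 and H1.2, and the demethylases ROS1 and DME. CMT2 had 22 covered windows, with levels of 0.457 and 0.321% in NRPD1ΔCTD, 1.05 and 0.390% in nrpd1-3, and 0.295 and 0.382% in NRPD1FL. Over all 13 genes, libraries ranged between 0.161 and 1.82%.

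Pol IV-independent windows came in runs. The 29065 windows formed 6698 runs of adjacent windows with a median length of 2, and 847 runs of 10 or more held 45.2% of them. The longest, of 59 windows, lay at chr4:4404301-4422000 over 6 pseudogenes and no protein-coding gene. Its level was 15.1 and 14.8% in NRPD1ΔCTD, 15.3 and 14.9% in nrpd1-3, and 14.9 and 14.7% in NRPD1FL, and single windows ranged between 9.36 and 22.4% over the libraries. CAA and CTA stood at 38.4 and 38.2% in its NRPD1ΔCTD libraries and the other 7 trinucleotides at 7.21 and 6.91%. The next 2 runs, chr3:13607701-13622700 with 50 windows and chr1:15488101-15502500 with 48, had 14.2 and 14.2%, and 16.7 and 16.2%, in NRPD1ΔCTD.

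Neighbours of a Pol IV-independent window were themselves of this kind in 77.0% of cases and Pol IV-dependent in 0.119%. The rule and the overlap of reads across window borders both favour likeness of neighbours, and no test was made. Among the other covered windows of the pericentromere, the share that was Pol IV-dependent or mixed was 1.32% directly beside a Pol IV-independent window, 6.598% at 2 to 3 windows from it and 9.09% at 4 to 10. In the arms it was 5.22% directly beside, 16.8% at 2 to 3 windows, 7.65% at 4 to 10 and 1.58% beyond 30 windows. Of 1079 arm windows at 2 to 3 windows from a Pol IV-independent window, 181 thus lost methylation in nrpd1-3.

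**Figure D5:**
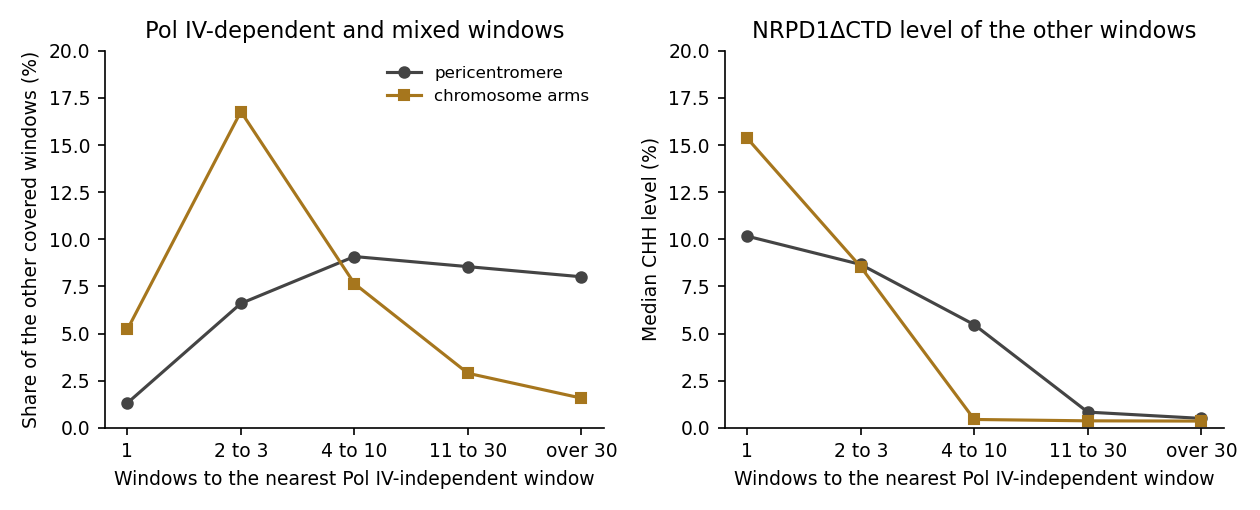
Covered windows that are not Pol IV-independent, by distance to the nearest Pol IV-independent window in windows of 300 bp (x axis), in the pericentromere and in the arms. The left panel gives the percent that were Pol IV-dependent or mixed, highest at 16.8% in the arms 2 to 3 windows away, and the right panel the median NRPD1ΔCTD level in percent.

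Levels within the set were mostly low. By the nrpd1-3 level, 16587 windows were at 10 to 15%, 9639 at 15 to 20%, 2737 at 20 to 30%, 69 at 30 to 40% and 33 at 40% or more. Of windows at 20 to 30%, 56.4% were pericentromeric, against 88.4% of those at 15 to 20%. With a limit of 20% in place of 10% there were 2839 windows, of which 56.1% were pericentromeric. The ratio of CAA and CTA to the other trinucleotides in NRPD1ΔCTD was 5.58 at 10 to 15%, 5.06 at 15 to 20%, 4.35 at 20 to 30%, 2.60 at 30 to 40% and 1.07 at 40% or more.

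The 33 highest windows had hardly any such preference. CAA and CTA were at 61.6% in NRPD1ΔCTD, 61.4% in nrpd1-3 and 61.5% in NRPD1FL, and the other trinucleotides at 57.4% in NRPD1ΔCTD, 55.5% in nrpd1-3 and 54.6% in NRPD1FL. The strands of these windows were unequal in base composition, with a median excess of C over G or the reverse of 61.01% of the C and G bases, against 12.9% in all Pol IV-independent windows. Strand levels differed by medians of 34.5 to 45.5 points over the libraries. The highest of all, chr3:2223301-2223600 in a coding exon of AT3G07030, had 144 C and 22 G on the top strand and was methylated at 100% in all 6 libraries. Its depth was 7.38 to 12.9 reads per cytosine.

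The next 2 by level lay in the pericentromere. At chr3:13407301-13407600, with 15 C and 134 G, the level was 85.7 and 86.7% in NRPD1ΔCTD, 92.9 and 85.4% in nrpd1-3, and 89.2 and 90.8% in NRPD1FL. Its bottom strand stood at 90.1% and its top strand at 14.8% in NRPD1ΔCTD. At chr5:12105301-12105600, with 15 C and 132 G, the level was 88.2 and 87.9% in NRPD1ΔCTD, 87.2 and 87.1% in nrpd1-3, and 83.6 and 90.9% in NRPD1FL. These 33 windows had depths of 14.3 to 17.7 reads per cytosine as medians, below the rest of the set, and what part of their level is methylation was not tested. Without them, a setting chosen after the data were seen, the log2 ratio of CAA and CTA to the rest was higher in Pol IV-independent than in Pol IV-dependent windows by 1.26, averaged over the 6 libraries.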

How the data were processed

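The authors trimmed bisulfite reads with cutadapt 1.9.1, mapped them to TAIR10 with Bismark 0.16.1 and deposited methylKit-format tables of CHH cytosines, per the labels and file columns. Each table holds the deposited coverage, a read count of 5 or more per cytosine, and the percent of reads that were C or T. Methylated counts were recovered from percent and coverage. Libraries held 192342372 to 225676590 CHH reads, summed over cytosines. Intervals for counting error were not computed, and the spread between libraries is given instead. Incomplete bisulfite conversion reads as methylation, and reads from repeats can map to the wrong copy. Windows of 300 bp were tested by binomial logistic regression (likelihood ratio, Benjamini-Hochberg over all covered windows), in Python 3.11.15 with NumPy 2.4.6, pandas 2.3.3 and SciPy 1.17.1. The regression was run beforehand on simulated counts, which did not model reads that span several cytosines, so that the effect of such reads was not tested. Library means were compared by exact permutation tests. R 4.3.3 with limma 3.58.1 gave an alternative. Pericentromere limits followed the study's methods, and features came from the TAIR10.1 annotation, whose coordinates matched. Windows were named by rule: the 3 longest runs, the median window of each chromosome, the 3 highest, those with the largest excess or deficit in NRPD1ΔCTD, the genes with most windows, and 2 Pol IV-dependent windows. Windows and lists were chosen with earlier results of these data known. Other contexts and small RNAs were not analysed here.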

Additional observations from a re-analysis of the deposited data

How the results depend on the processing

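With 2 libraries a group, no comparison between groups can reach p below 0.333 by permutation of libraries. The part of depth in precision was not tested. NRPD1ΔCTD minus nrpd1-3 over Pol IV-independent windows ranged between -0.411 and 0.0226 points when each library was left out, turning sign without nrpd1-3 replicate 1, and was 0.177 points in arm windows alone, a setting chosen after the data were seen. It kept its sign in the other 15 alternatives, and NRPD1ΔCTD minus NRPD1FL did so in 17 of 17. All alternatives kept a floor under nrpd1-3 alone, and its part in these signs was not tested. A limit of 20% in nrpd1-3 left 2839 windows, 56.1% of them pericentromeric. That share was 88.4% with a band of 5 points and 89.8% without windows above the 99th percentile of coverage.

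Beside each count of Pol IV-independent windows called, brackets give the count over all covered windows in the same setting. Covered were 207840 windows with 20 cytosines, 180406 with 10 reads, 278380 when shifted and 278507 otherwise. Counts higher in NRPD1ΔCTD than nrpd1-3, 4 as reported (4171), were 2 with 20 cytosines per window (2289), the 20% limit (4171) or a band of 2 points (4171). They were 9 with windows shifted by 150 bases (4128) and 10 with the mean over cytosines (4608). With limma (0), the F test (1) or 20 points (1372) they were 0, and with 5 points 96 (8790). Counts lower than nrpd1-3, 1 as reported (23), were 0 with 10 reads per cytosine (7), 20 cytosines (10), a band of 2 points (23), limma (0) or the F test (0). They were 5 with the mean over cytosines (80) and 34 with 5 points (493). Counts higher than NRPD1FL, 3 as reported (39), were 7 with a band of 5 points (39) and 9 with the mean over cytosines (58). With limma (0), the F test (0) or 20 points (5) they were 0, and with 5 points 45 (189). Counts lower than NRPD1FL, 1 as reported (1508), were 0 with 10 reads (667), 20 cytosines (679), a band of 2 points (1508), limma (0) or the F test (0). They were 5 with the mean over cytosines (1755) and 16 with 5 points (4194). Leaving out each library gave 3 to 18 higher (4127 to 4385) and 1 to 3 lower (23 to 358) than nrpd1-3. Against NRPD1FL it gave 1 to 12 higher (39 to 68) and 0 to 2 lower (1508 to 1724). The cause of these shifts was not tested.

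The strand difference in NRPD1ΔCTD was 3.81 points with 10 reads per cytosine, 3.80 with shifted windows, 5.48 with the 20% limit, 3.74 and 3.86 with bands of 2 and 5 points, and 3.82 without high coverage. It ranged between 3.77 and 3.80 points with a library left out. With a library left out, the log2 preference for CAA and CTA ranged between 1.14 and 1.40 against Pol IV-dependent windows and between 0.851 and 1.05 against mixed windows, as averages over the remaining libraries.

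Window by window, deviations from the group means correlated at 0.0117, 0.00365 and 0.0149 between the 3 pairs of groups over Pol IV-independent windows. A correlation over windows does not show a shift common to all of them. Replicate 1 exceeded replicate 2 in each group, by 0.230 points in NRPD1ΔCTD, 0.610 in nrpd1-3 and 0.181 in NRPD1FL. Whether the replicate numbers pair the libraries thus stays undecided. With the replicate number as a block, 5 windows were called higher and 1 lower than nrpd1-3, beside 4173 and 24 of all covered windows. Against NRPD1FL, 3 were higher and 1 lower, beside 37 and 1502 of all covered windows. The level differences stayed at -0.200 and 0.230 points.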
